A study of Ovis aries with 6 samples.

Results

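The nuclei described here were chosen by their own reads from single-nucleus RNA libraries of the sheep rumen lining. A nucleus was taken when it held at least 2 UMIs (unique molecular identifiers, 1 per captured RNA) of PAPSS2 and at least 1 UMI of at least 2 of KRT79, CA1 and NRG1. It also had to hold fewer than 4 of 6 basal genes (TP63, KRT15, SOX6, CDH13, FRAS1, GRIP1), at most 1 of 5 cell-division genes (ANLN, CENPF, TOP2A, DIAPH3, ASPM), at most 1 of 3 spinous genes (DSC1, DSG1, SERPINB13) and no UMI of the leukocyte gene PTPRC. After barcodes with under 500 genes or over 10% mitochondrial UMIs were dropped, 40419 nuclei were left; 824 of them met the rule and are called PAPSS2 nuclei below. There were 117, 142 and 252 of them in MGHS animals 1 to 3, and 56, 122 and 135 in MGNS animals 1 to 3.

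The study concerns grazing sheep given supplementary feed. Its animals here were 6 male lambs, 3 in the group MGHS and 3 in the group MGNS, and the labels do not spell out either name or give an age. Epithelium was taken after slaughter from the ventral sac of the rumen and frozen, and nuclear RNA of each animal went into 1 droplet library. The animal is therefore the replicate (n = 3 in each group), and nuclei of 1 animal are not replicates of each other.

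The rumen is lined by a stratified squamous epithelium. Basal keratinocytes sit on the basement membrane through hemidesmosomes and divide, and their daughters move up through spinous layers rich in desmosomes into a cornified surface. This epithelium takes up the short-chain fatty acids made by fermentation, burns or converts part of them to ketone bodies, and exports the acid with sodium-proton and bicarbonate exchangers. PAPSS2 makes PAPS, the sulfate donor of sulfotransferases. KRT79 is a type II keratin, CA1 is a cytosolic carbonic anhydrase that interconverts carbon dioxide and bicarbonate, and NRG1 is a ligand of the receptors ERBB3 and ERBB4.

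The 6 libraries held 67553 barcodes and 268011559 UMIs, between 34418856 and 59997793 per library. Any pair of libraries shared 19 to 49 barcodes, and 515 barcodes occurred in more than 1 library. The PAPSS2 nuclei gave 860791, 946376 and 1610887 UMIs in MGHS animals and 377453, 1016549 and 880444 UMIs in MGNS animals. Their median UMI count per nucleus was 6153 ± 784 in MGHS animals and 6905 ± 1062 in MGNS animals (SD, n = 3 each), a difference within the spread (two-sided exact permutation test, p = 0.5). The library of MGNS 2 stood apart in composition. Cytosolic ribosomal protein genes took 12.3% to 16.8% of the UMIs of PAPSS2 nuclei in MGHS libraries, and 6.62% in MGNS 2 against 12.4% and 12.8% in the other MGNS libraries. Mitochondrial genes took 1.2% to 2.31% in MGHS libraries, and 0.452% in MGNS 2 against 1.51% and 1.68% in the other MGNS libraries.

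Set against the working name, PAPSS2 and KRT79 keratinocytes above basal cells, the nuclei matched it in part. Of the 824, 721 (87.5%) held at least 3 of 10 epithelial markers such as DSP, PERP, CDH1 and KRT5, and 16 held none. At least 4 of 10 fibroblast markers were found in 111 of them (13.5%), and the share was highest in MGHS 3, at 23.0%, and MGNS 1, at 19.6%, with 6.3% to 11.1% elsewhere. The summed level of the fibroblast markers ran from 781 to 2951 CPM (counts scaled to a common library size of UMIs) in MGHS animals and from 983 to 2610 CPM in MGNS animals, with no fibroblast marker at 0. A subset of 645 nuclei with at least 3 epithelial markers and fewer than 4 fibroblast markers, defined after seeing the data, is given beside the main results as the epithelial subset. At least 3 of 8 smooth muscle or pericyte markers were held by 3.76% of the nuclei, with 6.75% in MGHS 3, and at least 3 of 8 blood endothelial markers by 3.03%, with 6.34% in MGHS 2. At least 3 of 10 T or NK cell markers were held by 2.43%, and at least 3 of 8 B or plasma cell markers by 0.121%.

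Of the genes that name the nuclei, PAPSS2 and KRT79 had mean levels close to those of basal nuclei, and NRG1 was lower in PAPSS2 than in basal nuclei in 6 of 6 animals. These levels follow from the rule and are a description only. PAPSS2 averaged 1215 ± 330 CPM in PAPSS2 nuclei, 1136 ± 322 CPM in basal nuclei and 292 ± 99.2 CPM in spinous nuclei (SD over 6 animals). Basal nuclei here are the 3273 nuclei with at least 4 of the 6 basal genes, and spinous nuclei are the 2932 with at least 2 of the 3 spinous genes. KRT79 averaged 439 CPM in PAPSS2 nuclei, 478 CPM in basal nuclei and 71 CPM in spinous nuclei. NRG1 was at 910 CPM in PAPSS2 nuclei and higher in basal nuclei, at 1745 CPM. PAPSS2 and basal nuclei are divided by the limit on basal genes: 387 of the 824 held 3 basal genes, just inside that limit, and 57 held none.

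CA1 UMIs occurred in most nuclei of every class compared here. A CA1 UMI was found in 821 of 824 PAPSS2 nuclei, with a median of 37 UMIs and a maximum of 654. The same gene had a UMI in 98.4% of basal nuclei, 87.9% of spinous nuclei and 60.5% of T or NK nuclei, which are of another lineage. Median depths were 6263, 7200, 9537 and 3419 UMIs for PAPSS2, basal, spinous and T or NK nuclei. PAPSS2 had a UMI in 21.2% of T or NK nuclei, KRT79 in 14.6% and NRG1 in 18.0%. With every nucleus thinned to 2000 UMIs, which left out 102 PAPSS2 nuclei, 139 basal, 123 spinous and 2093 T or NK nuclei, CA1 was found in 93.5% of PAPSS2 nuclei, 96.6% of basal nuclei, 68.2% of spinous nuclei and 48.2% of T or NK nuclei. PAPSS2 was found in 79.6%, 71.4%, 30.6% and 14.6% of the same 4 classes. The rule sets the shares of PAPSS2 nuclei, so they are a description and no comparison with the T or NK nuclei is drawn from them.

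**Figure D1:**
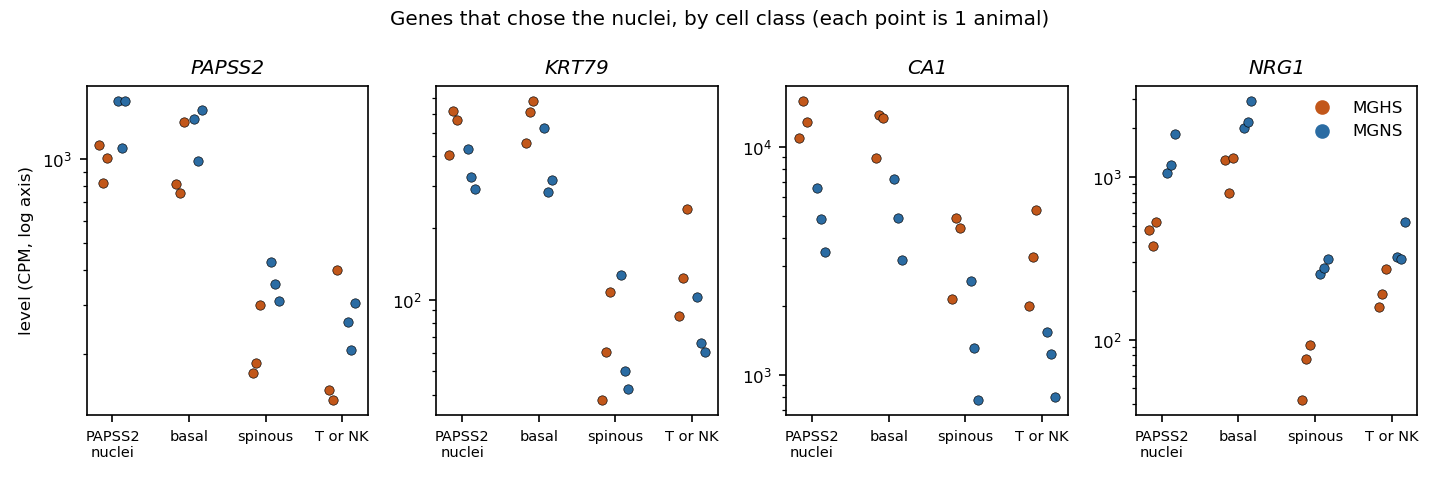
Level of the 4 genes that name the nuclei (CPM, log axis) in PAPSS2, basal, spinous and T or NK nuclei; each point is 1 animal, MGHS left of MGNS in every class. PAPSS2, KRT79 and CA1 lie at like heights in PAPSS2 and basal nuclei, and CA1 lies higher in the MGHS animals in PAPSS2 nuclei and in T or NK nuclei.

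Nuclei at the edges of the rule are given once. Exactly 2 PAPSS2 UMIs were held by 223 nuclei (27.1%) and at least 5 by 410 (49.8%). Of the 223 just inside, 73.5% had at least 3 epithelial markers, against 57.0% of the 493 nuclei that met every other criterion but held exactly 1 PAPSS2 UMI. COL17A1 was at 102 CPM in the 387 nuclei with exactly 3 basal genes, against 170 CPM in the 851 nuclei with exactly 4 that were otherwise inside. Those 851 outnumber all the PAPSS2 nuclei. Nuclei with 2 or 3 spinous genes that were otherwise inside numbered 654 and had DSC2 at 1591 CPM.

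Genes that the rule did not use placed the PAPSS2 nuclei between basal and spinous nuclei in all 6 animals. Hemidesmosome and basement membrane genes, summed over 18 genes, came to 1243 ± 194 CPM in PAPSS2 nuclei, 2795 ± 495 CPM in basal nuclei and 310 ± 38 CPM in spinous nuclei (SD, n = 6). COL17A1, the transmembrane collagen of the hemidesmosome, averaged 74.5 CPM in PAPSS2 nuclei, 227 CPM in basal nuclei and 6.8 CPM in spinous nuclei. Integrin ITGA6, which with ITGB4 binds laminin, stood at 103, 262 and 17.4 CPM in the same order. KRT5, the type II keratin of basal layers, was at 549 CPM in PAPSS2 nuclei, 1048 CPM in basal nuclei and 77.9 CPM in spinous nuclei. Every one of these genes was below basal and above spinous nuclei in 6 of 6 animals. The classes were set by genes of the same nuclei, so these orders are a description and no test was run.

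Desmosome and cornified envelope genes ran the other way. The summed desmosome and adherens junction genes were at 5342 ± 726 CPM in PAPSS2 nuclei, 3606 ± 421 CPM in basal nuclei and 10657 ± 949 CPM in spinous nuclei. DSC2, a desmosomal cadherin, averaged 579 CPM in PAPSS2 nuclei, 214 CPM in basal nuclei and 2081 CPM in spinous nuclei, and the plaque protein DSP averaged 685, 482 and 1539 CPM in that order. Cornified envelope and lipid barrier genes summed to 3373 ± 585 CPM in PAPSS2 nuclei, 1061 ± 320 CPM in basal nuclei and 9996 ± 776 CPM in spinous nuclei. SPINK5, an inhibitor of the kallikrein proteases that shed the surface, was at 1445 CPM in PAPSS2 nuclei, 327 CPM in basal nuclei and 3683 CPM in spinous nuclei. FLG, KLK5, KLK7, KLK8 and CASP14 of this list had no UMI in PAPSS2 nuclei. Keratins outside the rule were mixed. KRT6A followed the same order, at 3027 CPM in PAPSS2 nuclei, 1108 CPM in basal nuclei and 4589 CPM in spinous nuclei, while KRT5, given above, ran the other way.

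Genes of fatty acid uptake and ketone body formation stayed on the basal side. SLC16A1, the proton-coupled monocarboxylate transporter MCT1, averaged 405 ± 181 CPM in PAPSS2 nuclei, 922 ± 247 CPM in basal nuclei and 36.1 ± 18.2 CPM in spinous nuclei. The whole list of fatty acid activation and ketone body genes summed to 4165 ± 627 CPM in PAPSS2 nuclei, 5201 ± 398 CPM in basal nuclei and 1608 ± 153 CPM in spinous nuclei, lower than basal and higher than spinous nuclei in 6 of 6 animals. MCT1 was likewise below its basal level in every animal.

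Sodium-proton exchangers of the cell surface lay on the spinous side. SLC9A2 (NHE2) averaged 174 ± 61.7 CPM in PAPSS2 nuclei, 40.9 ± 29.8 CPM in basal nuclei and 551 ± 224 CPM in spinous nuclei. SLC9A3 (NHE3) averaged 71.7 ± 44.2 CPM in PAPSS2 nuclei, 20.8 ± 15.4 CPM in basal nuclei and 247 ± 105 CPM in spinous nuclei. The anion exchanger SLC26A3 followed, at 616 ± 498 CPM in PAPSS2 nuclei, 170 ± 149 CPM in basal nuclei and 2592 CPM in spinous nuclei. CA12, a carbonic anhydrase of the outer membrane face, was on the basal side instead, at 236 ± 83.5 CPM in PAPSS2 nuclei, 437 ± 128 CPM in basal nuclei and 18 ± 3.99 CPM in spinous nuclei. T or NK nuclei held SLC9A3 at a mean of 55.6 CPM and CA12 at 61.5 CPM, so levels of that order also occur in cells of another lineage.

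**Figure D2:**
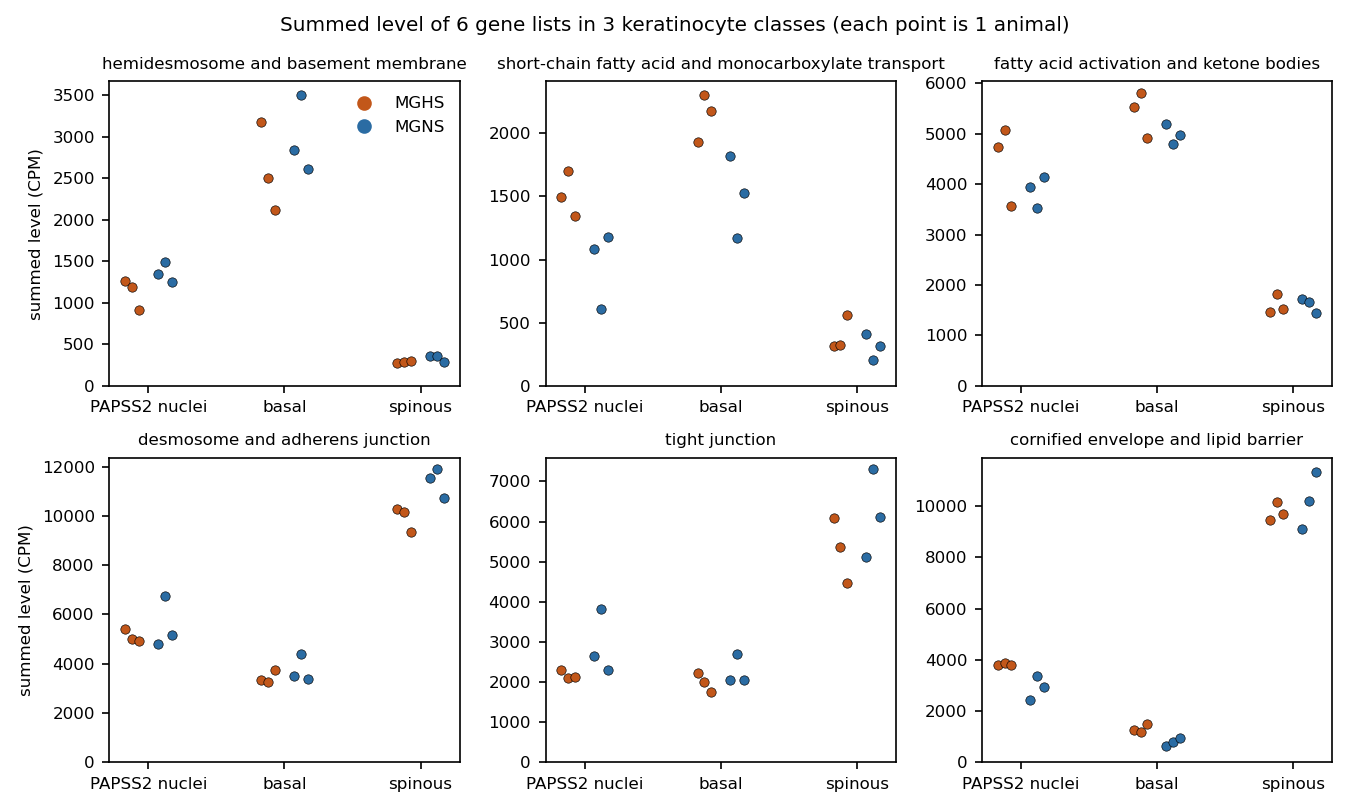
Summed level (CPM) of 6 gene lists in PAPSS2, basal and spinous nuclei, without the genes of the rule; each point is 1 animal, MGHS left of MGNS. Hemidesmosome, fatty acid transport and ketone body genes lie below basal and above spinous nuclei, and desmosome, tight junction and cornified envelope genes lie above basal and below spinous nuclei, in all 6 animals.

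The partners of PAPSS2 and NRG1 lay on both sides of the PAPSS2 nuclei. SLC26A2, the sulfate transporter that supplies PAPSS2, averaged 222 ± 73.5 CPM in PAPSS2 nuclei, 435 ± 131 CPM in basal nuclei and 55.2 ± 15.7 CPM in spinous nuclei. SULT2B1, the cholesterol sulfotransferase that uses PAPS in upper skin layers, averaged 46.7 ± 25.4 CPM in PAPSS2 nuclei, 12 ± 6.59 CPM in basal nuclei and 199 ± 78.5 CPM in spinous nuclei. BPNT1, which clears the spent PAP, was at 102 CPM in PAPSS2 nuclei, 112 CPM in basal nuclei and 46.8 CPM in spinous nuclei. PAPSS1, the paralog of PAPSS2, reached 10.7 ± 7.15 CPM in PAPSS2 nuclei and 4.39 CPM in the epithelial subset. Of these single genes, SLC26A2 and BPNT1 thus lay on the basal side and SULT2B1 on the spinous side. The whole sulfate list, summed over 37 genes, was at 1037 ± 188 CPM in PAPSS2 nuclei, 1219 ± 243 CPM in basal nuclei and 871 ± 212 CPM in spinous nuclei. That sum was above basal nuclei in 0 animals and below spinous nuclei in 0. Among receptors, ERBB3 averaged 93.8 ± 33.3 CPM in PAPSS2 nuclei, 53.5 ± 9.13 CPM in basal nuclei and 219 ± 41 CPM in spinous nuclei. EGFR, the receptor of TGFA, AREG and EREG, ran the other way, at 575 ± 179, 873 ± 150 and 429 ± 80.2 CPM in that order. ERBB4 stayed at 7.99 ± 11.4 CPM in PAPSS2 nuclei and 3.77 CPM in the epithelial subset. The EGFR ligand TGFA was at 174 ± 61.4 CPM in PAPSS2 nuclei, 51.3 ± 28.3 CPM in basal nuclei and 383 ± 88.5 CPM in spinous nuclei.

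Split by the number of basal genes they held, 190 PAPSS2 nuclei had none or 1 and 634 had 2 or 3. The rule used the same count, and the 190 were shallower, with a median of 4976 UMIs against 6577.5 UMIs in the 634, so the values that follow are a description. SPINK5 averaged 4009 CPM in the 190 nuclei and 879 CPM in the 634, higher in 6 of 6 animals, and KRT78 averaged 1390 CPM in the 190 nuclei and 282 CPM in the 634. SLC9A3 was at 211 CPM in the 190 nuclei and 33.7 CPM in the 634, and SLC9A2 was at 516 and 90.6 CPM in the same order. SLC16A1 was at 89.6 CPM in the 190 nuclei and 490 CPM in the 634, lower in 6 of 6 animals, and the summed hemidesmosome genes were at 590 and 1395 CPM. The fibroblast marker sum was 3334 CPM in the 190 nuclei and 1151 CPM in the 634, higher in 5 of 6 animals. Nuclei with none or 1 basal gene were 26.5%, 23.9% and 26.6% of PAPSS2 nuclei in MGHS animals and 21.4%, 17.2% and 18.5% in MGNS animals, without overlap.

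By the fixed ranking of log2 ratios to the other 12006 epithelial nuclei, the leading genes of the PAPSS2 nuclei were those of connective tissue. LAMA2, a laminin chain, averaged 284 ± 140 CPM in PAPSS2 nuclei and 122 ± 73.1 CPM in basal nuclei. COL12A1, COL1A2, COL3A1, COL1A1, DCN, PDGFRA, ABI3BP, SLIT3, GPC6 and SULF1 were also among the 20 highest. The 10 lowest were SCN9A, ENDOU, A2ML1, NAV2, PLA2G4E, XDH, PPM1L, PMFBP1, MXI1 and DSG4. A2ML1, a protease inhibitor of upper layers, averaged 990 ± 342 CPM in PAPSS2 nuclei and 290 ± 158 CPM in basal nuclei. In the epithelial subset the fibroblast genes left the top of the ranking, and CD74, GSTA1, DQA, ERC2, STK39, IL17REL and GJA1 led it. Of these CD74, DQA and STK39 were lower in the epithelial subset, at 79.2, 33.0 and 112 CPM, than in T or NK nuclei, at 281, 119 and 194 CPM. The part that RNA of fibroblasts or of T or NK cells plays in these levels was not tested.

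GJA1, which encodes the gap junction protein connexin 43, was highest in the PAPSS2 nuclei among the classes compared. It stood at 1456, 1225 and 824 CPM in MGHS animals and 880, 769 and 886 CPM in MGNS animals. Its mean was 1006 ± 272 CPM in PAPSS2 nuclei, 573 ± 139 CPM in basal nuclei, 544 ± 105 CPM in spinous nuclei and 211 ± 56.3 CPM in T or NK nuclei (SD, n = 6). It was above both keratinocyte classes in 6 of 6 animals, and in the epithelial subset it averaged 1085 ± 281 CPM. As a class mean, GJA1 thus lay outside the range between basal and spinous nuclei, as did GSTA1, ERC2 and DENND4A, though less evenly. GSTA1 averaged 243 ± 280 CPM and was above spinous nuclei in 5 animals. ERC2 averaged 240 ± 239 CPM and was above basal nuclei in 5. DENND4A averaged 219 ± 27.8 CPM, was above basal nuclei in 5 and stood at 219 CPM in T or NK nuclei too. By the split above, GJA1 averaged 596 CPM in the nuclei with none or 1 basal gene and 1108 CPM in those with 2 or 3. The nuclei with none or 1 were the higher in 0 of 6 animals, so the high level was mainly that of nuclei nearer the basal limit. GJA1 was picked out after its values were seen, and no test was run.

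The share of PAPSS2 nuclei in the epithelium overlapped between the groups. Among epithelial nuclei, those with at least 3 epithelial markers and no PTPRC UMI, they were 5.29%, 5.04% and 5.95% in MGHS animals, against 4.66%, 6.36% and 6.16% in MGNS animals. The exact 95% binomial intervals, which cover counting error only, ran from 4.20% to 6.79% over the MGHS animals and from 3.44% to 7.59% over the MGNS animals. The mean was 5.43% ± 0.469 in MGHS animals and 5.73% ± 0.933 in MGNS animals (SD, n = 3 each), the groups overlapped, and the two-sided exact permutation test gave p = 0.7. With 3 animals against 3 that test cannot go below 0.1. The difference of means was -0.30 percentage points with all animals and 0.0183 without MGNS 2.

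The share depended on how it was counted. As a percentage of all nuclei, PAPSS2 nuclei were 2.40% ± 0.447 in MGHS animals and 1.55% ± 0.347 in MGNS animals, without overlap (exact p = 0.1, the smallest possible). Epithelial nuclei were 2021 of 5683, 2399 of 6355 and 3512 of 8674 nuclei in MGHS animals. They were 1009 of 4670, 1807 of 7903 and 1979 of 7134 in MGNS animals, a smaller share in each. The part of this in the percentage of all nuclei was not tested. With all nuclei as the denominator the share of PAPSS2 nuclei also lay apart without doublets, with at least 300 genes and in the epithelial subset. It overlapped with at least 1000 genes. The share was 3.35% in MGHS animals and 3.46% in MGNS animals with the rule applied after thinning (exact p = 0.8), 0.911% and 0.844% in the same order without CA1 (exact p = 0.6), and 0.763% and 0.727% under a stricter rule (exact p = 0.6), all with overlap. As a share of epithelial nuclei, leaving CA1 out of the rule, so that both KRT79 and NRG1 were needed, gave 2.25% ± 0.277 in MGHS animals and 3.38% ± 0.270 in MGNS animals, again without overlap (exact p = 0.1). The CA1 and NRG1 levels that enter the rule did not overlap between the groups either, as given next. Spinous nuclei were 18.6% ± 3.88 of epithelial nuclei in MGHS animals and 27.1% ± 2.77 in MGNS animals (exact p = 0.1), and basal nuclei were 21.9% ± 7.32 in MGHS animals and 29.0% ± 4.94 in MGNS animals (exact p = 0.3).

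The genes of the rule varied with the group inside the chosen nuclei, which is given as a description, in CPM without further scaling (plain CPM). CA1 stood at 10900.4, 15894 and 12819 CPM in MGHS animals, against 6607, 4825 and 3471 CPM in MGNS animals. It was higher in every MGHS animal than in any MGNS animal. In T or NK nuclei CA1 ran from 1997 to 5309 CPM in MGHS animals and from 801 to 1541 CPM in MGNS animals, also without overlap. NRG1 ran the other way, with 473, 373 and 530 CPM in MGHS animals, against 1060, 1187 and 1838 CPM in MGNS animals. PAPSS2 was at 1127, 821 and 1009 CPM in MGHS animals and 1619, 1098 and 1618 CPM in MGNS animals, with overlap. KRT79 was at 405, 617 and 565 CPM in MGHS animals and 427, 327 and 292 CPM in MGNS animals, with overlap in plain CPM only. TMM scaling, used for the tests below, multiplies the library size by 0.935 in MGHS 1 and 1.05 in MGNS 1. On that scale MGHS 1 lies above MGNS 1, and the groups do not overlap in KRT79. KRT15 was at 522, 1030.2 and 552 CPM in MGHS animals and 575, 37.4 and 717 CPM in MGNS animals, low in MGNS 2.

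The mix of marks differed as well. Nuclei with KRT79 and CA1 but no NRG1 UMI were 47.9%, 42.3% and 38.1% of PAPSS2 nuclei in MGHS animals, against 30.4%, 13.9% and 9.63% in MGNS animals. Nuclei with all 3 marks were 35.9%, 38.7% and 38.9% in MGHS animals, against 57.1%, 50.8% and 54.1% in MGNS animals. Neither share overlapped between the groups, and only 3 nuclei lacked CA1. These marks are genes of the rule, so their mix is a description only. NRG1 was also lower in MGHS animals in other classes. In basal nuclei it ran from 798 to 1298 CPM in MGHS animals and from 2001 to 2924 CPM in MGNS animals. In T or NK nuclei it ran from 159 to 271 CPM and from 310 to 525 CPM in the same order. Spinous nuclei likewise showed no overlap, and fibroblasts did. The part of this level in the mix of marks was not tested.

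**Figure D3:**
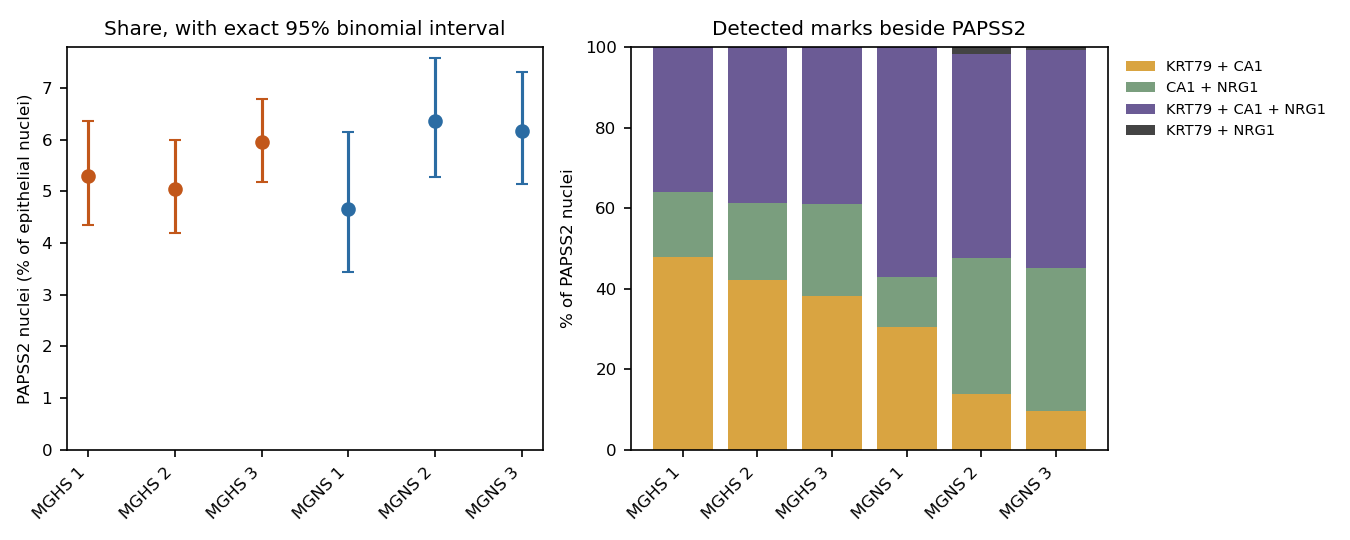
Left, PAPSS2 nuclei as a percentage of epithelial nuclei in each animal with the exact 95% binomial interval; right, the marks detected beside PAPSS2 as a percentage of PAPSS2 nuclei. The shares overlap between MGHS and MGNS, and nuclei with KRT79 and CA1 but no NRG1 run from 38.1% to 47.9% in MGHS and from 9.63% to 30.4% in MGNS. The marks are genes of the rule, so their mix is a description only.

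To ask which genes differed with the group inside PAPSS2 nuclei, their UMIs were summed per animal and tested with edgeR's quasi-likelihood test, with Benjamini-Hochberg adjustment over 9038 genes. Of these 10 passed an adjusted p of 0.05, which is 0.111%, with 8 higher in MGHS (0.0885%) and 2 lower (0.0221%). At an unadjusted p under 0.05 there were 1701 (18.8%), and DESeq2 called 213 where edgeR called 10. The epithelial subset gave 9 calls among 8249 genes (0.109%), 8 of them shared. Without MGNS 2, the library that stood apart, GPX1 was the 1 gene that passed, and leaving out each animal in turn gave 1 to 10 calls. Levels of single genes in PAPSS2 nuclei below are CPM on TMM-scaled library sizes, FBXO32 excepted. Such sizes correct for a few abundant genes taking a larger share in 1 group. On that scale 25.9% of genes did not overlap between the groups, 13.7% higher and 12.2% lower in MGHS. On plain CPM the split was 7.47% higher and 22.7% lower. The 50 most abundant genes took 16.2% to 18.8% of UMIs in MGHS animals and 9.57% to 13.8% in MGNS animals.

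GPX1 differed most firmly. This selenoprotein, which uses glutathione to reduce peroxides, stood at 351, 252 and 310 CPM in MGHS animals, against 33.9, 26.4 and 30.7 CPM in MGNS animals. Each MGHS animal was far above each MGNS animal. The log2 fold change was 3.35 ± 0.25 (SE, derived from the F statistic), with adjusted p = 0.00118 in edgeR. GPX1 passed under all 17 alternatives run on it, with adjusted p between 3.3e-22 and 0.0236. SELENOW, a small selenoprotein whose level tracks selenium supply in mammals, stood at 137, 128 and 119 CPM in MGHS animals, against 39.1, 43.0 and 43.8 CPM in MGNS animals. The groups lay apart with little spread inside each, and the log2 fold change was 1.59 ± 0.22 (adjusted p = 0.0367 in edgeR). It passed in 6 of 17 alternatives and in none of the 6 fits that left out 1 animal. Both selenoproteins were also higher in MGHS in the T or NK nuclei of the same samples. GPX1 was there at 155 to 283 CPM in MGHS animals and 54.2 to 112 CPM in MGNS animals. SELENOW was there at 81.4 to 135 CPM in MGHS animals and 28.4 to 50.8 CPM in MGNS animals.

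SLC9A3, the exchanger NHE3 described above, stood at 135, 135 and 101 CPM in MGHS animals, against 41.8, 30.7 and 21.9 CPM in MGNS animals. All MGHS values were above all MGNS values, with a log2 fold change of 2.02 ± 0.29 (adjusted p = 0.0367 in edgeR). The call held in 1 of the 6 fits that left out an animal, that without MGHS 3. The nuclei with none or 1 basal gene, in which SLC9A3 was higher, were a larger share in each MGHS animal than in any MGNS animal, and their part in this result was not tested. LYPD2, a GPI-anchored protein of the Ly6 family, stood at 880, 723 and 983 CPM in MGHS animals, against 248, 221 and 201 CPM in MGNS animals, a log2 fold change of 1.95 ± 0.25. PADI1, which converts arginine to citrulline in proteins of the upper epidermis, stood at 230, 301 and 397 CPM in MGHS animals, against 86.1, 93.1 and 66.9 CPM in MGNS animals, a log2 fold change of 1.92 ± 0.27. ABHD17B, a depalmitoylase, stood at 618, 545 and 471 CPM in MGHS animals, against 164, 166 and 175 CPM in MGNS animals, a log2 fold change of 1.69 ± 0.23. None of these genes overlapped between the groups, and all 3 had an adjusted p of 0.0367 in edgeR. LYPD2 and PADI1 passed in none of the fits that left out an animal, and ABHD17B passed in that without MGHS 3. Mean levels of LYPD2, PADI1 and ABHD17B were higher in spinous than in basal nuclei in both groups, and the part of the mix of nuclei in their results was not tested. Over the alternatives that gave a value the log2 fold change ran from 0.20 to 1.76 for ABHD17B and from 0.84 to 2.22 for SLC9A3, lowest for both with CA1 left out of the rule.

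ARPP21, an RNA-binding phosphoprotein known from neurons of other mammals, had 112, 42 and 237 UMIs in MGHS animals, against 1, 0 and 2 UMIs in MGNS animals. It was near absent from the PAPSS2 nuclei of MGNS animals, so the fitted log2 fold change of 6.44 ± 0.77 (adjusted p = 0.0367 in edgeR) depends on the small value added to low counts. The call was lost without MGHS 1 and without each MGNS animal in turn. ARPP21 was not limited to these nuclei, with 33.6 to 88 CPM in MGHS animals and 7.01 to 32.6 CPM in MGNS animals among T or NK nuclei. Spinous nuclei held more of it, at 151 to 588 CPM in MGHS animals and 8.55 to 78.7 CPM in MGNS animals. The eighth gene, LOC101122351, has only a placeholder symbol and rose by 2.21 ± 0.31 on the log2 scale. Its mean levels were also higher in spinous than in basal nuclei in both groups. The part of the mix of nuclei in the results of ARPP21 and LOC101122351 was not tested.

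Lower in MGHS were SLC28A3 and MAP3K5. SLC28A3, a sodium-coupled concentrative nucleoside transporter, stood at 29.4, 25.4 and 12.6 CPM in MGHS animals, against 102, 99.3 and 121 CPM in MGNS animals. Every MGHS value lay below every MGNS value, and the log2 fold change was -2.30 ± 0.32 (adjusted p = 0.0367 in edgeR). It held in 8 of 17 alternatives and, of the fits that left out an animal, in that without MGHS 3. MAP3K5, the stress kinase ASK1 that acts above JNK and p38, stood at 155, 179 and 225 CPM in MGHS animals, against 637, 655 and 520 CPM in MGNS animals. The groups were apart, with a log2 fold change of -1.69 ± 0.25 (adjusted p = 0.0447 in edgeR), and the call was lost whichever animal was left out.

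**Figure D4:**
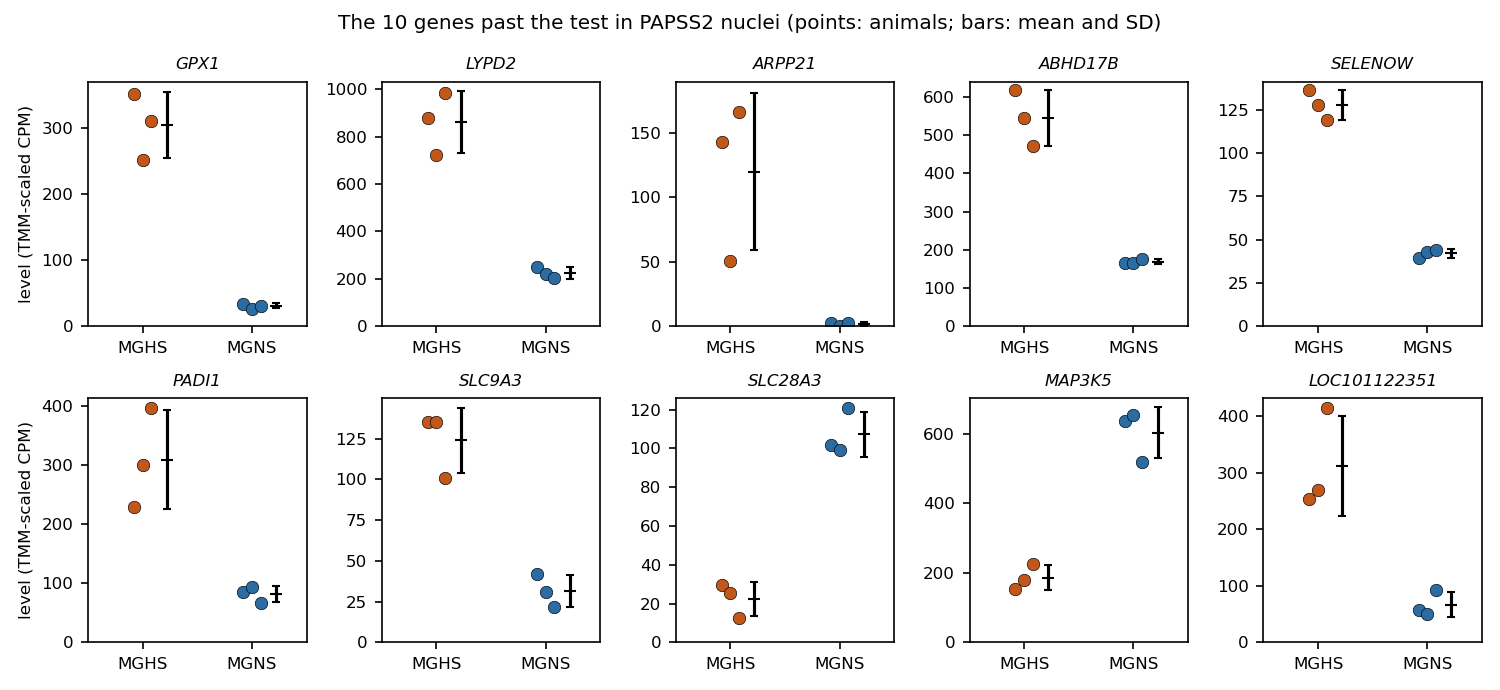
Level (TMM-scaled CPM) of the 10 genes past the test in PAPSS2 nuclei, with 1 point per animal and bars for the mean and SD, MGHS left and MGNS right. GPX1 lies between 252 and 351 in MGHS and between 26.4 and 33.9 in MGNS, and none of the 10 genes overlaps between the groups.

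The same 10 genes had the same sign in basal and spinous nuclei. GPX1 had a log2 fold change of 2.80 ± 0.30 in basal nuclei and 2.33 ± 0.39 in spinous nuclei, with adjusted p = 0.0358 and 0.112 in edgeR. SLC28A3 changed by -1.98 ± 0.25 in basal nuclei and -2.64 ± 0.28 in spinous nuclei (adjusted p = 0.0410 and 0.0462). SLC9A3 was at 2.35 ± 0.27 in basal nuclei, past the test, and at 1.08 ± 0.33 in spinous nuclei, not past it. In plain CPM of T or NK nuclei, LYPD2 ran from 187 to 407 in MGHS animals and from 85.7 to 101 in MGNS animals, and SLC28A3 ran from 6.21 to 15.9 in MGHS animals and from 24 to 69 in MGNS animals. Whether RNA free in the droplets plays a part in these values was not tested. Basal nuclei had 30 calls among 13156 genes (0.228%), and 14.1% at an unadjusted p under 0.05. Spinous nuclei had 3 calls among 12641 (0.0237%), and 16.3% at an unadjusted p under 0.05.

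**Figure D5:**
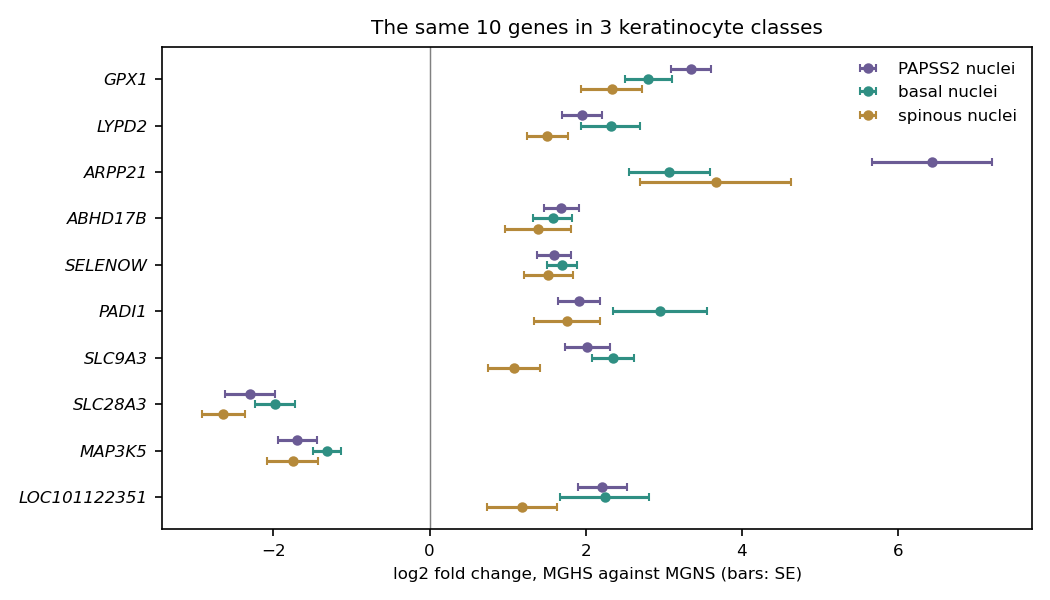
Log2 fold change of MGHS against MGNS, with its SE, for the 10 genes past the test in PAPSS2 nuclei, given for PAPSS2, basal and spinous nuclei. All 10 have the same sign in the 3 classes, with GPX1 at 3.35, 2.80 and 2.33.

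A test of the class-by-group term asked where the MGHS effect itself differed from that in the neighbouring layers. Against basal nuclei 1 of 12923 genes passed (0.00774%), FBXO32, a ubiquitin ligase subunit known from muscle as atrogin-1, while 6.07% had an unadjusted p under 0.05. In plain CPM FBXO32 stood at 811, 380 and 243 in PAPSS2 nuclei of MGHS animals, against 170, 263 and 324 in those of MGNS animals, with overlap. In basal nuclei it stood at 317, 126 and 54.9 CPM in MGHS animals, against 16.6, 27.8 and 27.2 CPM in MGNS animals, without overlap. The difference in log2 fold change was -1.57 ± 0.21 (adjusted p = 0.0210 in edgeR), and in the epithelial subset it was -1.34 with adjusted p = 0.117. Against spinous nuclei none of 12432 genes passed in edgeR, with 652 (5.24%) at an unadjusted p under 0.05. The smallest p there belonged to CNTNAP2, CNBD1 and GPC6, which did not pass. On simulated counts the class-by-group test recovered 7% of true log2 differences of 1, against basal and against spinous nuclei alike. Of log2 differences of 2 it recovered 80% against basal and 70% against spinous nuclei. The simulation gave all genes the same dispersion and no animal effect, unlike these data, so its rates are a rough guide. Few calls therefore do not show that the MGHS effect was the same in the classes. The numbers of calls also depended on the setting. Against basal nuclei 34 genes passed with CA1 left out of the rule, FBXO32 not among them, 35 passed without MGNS 3, 7 without MGHS 3 and 88 with no filter on low counts. Against spinous nuclei 2 passed with CA1 left out of the rule and 91 with no filter.

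Genes just short of the threshold are named by the fixed ranking. HOPX, a homeodomain protein of differentiating keratinocytes, stood at 227, 231 and 324 CPM in MGHS animals and 86.1, 90.5 and 55.9 CPM in MGNS animals (log2 fold change 1.76 ± 0.27, adjusted p = 0.0579 in edgeR). RALYL and HERC4 followed on the higher side. Mean levels of HOPX and HERC4 were higher in spinous than in basal nuclei in both groups, and the part of the mix of nuclei was not tested. On the lower side were LARP1B, the complement gene C7, MED27, NFKB1, CASK, OLA1, STK39 and CARMIL1, with adjusted p between 0.0580 and 0.0850. NFKB1, the p105 and p50 subunit of NF-kB, stood at 181, 120 and 143 CPM in MGHS animals and 303, 483 and 534 CPM in MGNS animals (log2 fold change -1.58 ± 0.28). Its groups did not overlap, yet it did not pass.

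Gene lists were read against the median of all tested genes, a log2 fold change of -0.02, and against the 13.7% and 12.2% of genes whose groups lay apart. Of the 28 function lists, 3 had members past the test: the selenoproteins with GPX1 and SELENOW, the acid and bicarbonate exchangers with SLC9A3, and the nucleoside transporters with SLC28A3. In the other 25 lists no member passed, so the values that follow are not calls. Each list counts only members that passed the filter on low counts.

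Among selenoproteins 20 of 27 were tested, 6 lay apart higher and 1 lower, and the median log2 fold change was 0.26. SELENOH, a nuclear member, was at a log2 fold change of 1.60 ± 0.35 and GPX2, the gut glutathione peroxidase, at 2.62 ± 0.62. Genes of the NRF2 and glutathione list had a median of 0.64 over 26 tested, with 12 (46.2%) apart higher and 2 apart lower. Among them GCLM, a subunit of the enzyme that starts glutathione synthesis, was at 211 ± 24.1 CPM in MGHS animals and 82.0 ± 24.6 CPM in MGNS animals (log2 fold change 1.39 ± 0.26, adjusted p = 0.0850 in edgeR). TXN, thioredoxin, was at 1.56 ± 0.38, SOD1, the cytosolic superoxide dismutase, at 1.45 ± 0.36, and MGST1, a membrane glutathione transferase, at 1.00 ± 0.27.

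Keratins outside the rule had the highest median of the 28 function lists. Of 10 tested, 7 (70.0%) lay apart higher and none lower, with a median log2 fold change of 1.09 and no call. KRT78 was at 823 ± 255 CPM in MGHS animals and 252 ± 29.8 CPM in MGNS animals (log2 fold change 1.71 ± 0.29, adjusted p = 0.0663 in edgeR). KRT36 was at 2.12 ± 0.40, KRT13 at 2.28 ± 0.50 and KRT80 at 1.04 ± 0.27. KRT13 and KRT78 belong to mucosal squamous epithelium. KRT78 was higher in the nuclei with none or 1 basal gene, as given above. Those nuclei were a larger share in each MGHS animal than in any MGNS animal, and their part in the keratin values was not tested. In the cornified envelope list the median was -0.06 over 17 tested, yet KRTDAP, a secreted protein of differentiating keratinocytes, was at 2.36 ± 0.40 and IVL, involucrin, at 1.90 ± 0.49. SPINK5 was at 0.78 ± 0.29, and TGM5, a transglutaminase, at -1.03 ± 0.42.

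Transport and fuel genes were mixed. The list of carbonic anhydrases, bicarbonate and sodium-proton exchangers had a median of 0.52 over 12 tested, with SLC9A2 at 1.16 ± 0.22 and the sodium-bicarbonate cotransporter SLC4A7 at -1.31 ± 0.36. SLC16A1 stood at 591, 758 and 471 CPM in MGHS animals, against 308, 130 and 339 CPM in MGNS animals, without overlap (log2 fold change 1.24 ± 0.37, adjusted p = 0.136 in edgeR). The list of fatty acid transport had a median of 0.51 over 5 tested. The chaperone of SLC16A1, BSG or basigin, was at 0.88 ± 0.35, while SLC16A7, the related MCT2, was at -1.06 ± 0.75. Among ketone body genes the median was 0.26 over 24 tested, with ACAT1, which condenses acetyl-CoA, at 0.77 ± 0.25. OXCT1, which lets cells burn ketone bodies, was at -1.37 ± 0.36, and PDK4, which holds pyruvate back from oxidation, at -1.12 ± 0.26. The list of urea, ion and water transport had a median of -0.06 over 16 tested. The urea transporter SLC14A1 was at 1.46 ± 0.51, the water channel AQP5 at 2.02 ± 0.68, the potassium channel KCNMA1 at 2.17 ± 0.54 and KCNK1, another potassium channel, at -1.24 ± 0.38. None of these but SLC9A3 passed the test.

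Genes of the pathways that the marks belong to showed no call. Of 38 sulfate activation and sulfotransferase genes in the files 21 were tested, the median log2 fold change was -0.22, and 2 lay apart higher and 1 lower. IDS, a lysosomal sulfatase, was at 1.58 ± 0.31, ARSB, another, at -1.01 ± 0.39, the uronyl sulfotransferase UST at -1.13 ± 0.42 and the extracellular sulfatase SULF1 at -2.34 ± 0.88. Of the neuregulin and EGF list 16 were tested, with a median of -0.17 and TGFA at 236 ± 40.8 CPM in MGHS animals and 129 ± 52.5 CPM in MGNS animals (log2 fold change 0.86 ± 0.30, adjusted p = 0.182 in edgeR). ADAM10, a protease that sheds such ligands, was at -0.55 ± 0.23, DUSP6, a phosphatase of ERK, at -0.69 ± 0.34, and LRIG3, a regulator of these receptors, at 0.65 ± 0.36.

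Junction genes had no call. Desmosome and adherens junction genes had a median of -0.02 over 18 tested, with PERP at 0.79 ± 0.24, PKP3 at 0.68 ± 0.24, PKP2 at -0.997 ± 0.31 and CTNNA1 at -0.68 ± 0.25. Tight junction genes had a median of -0.16 over 16, with none apart higher and 3 (18.8%) apart lower. OCLN, occludin, was at 69.3 ± 3.62 CPM in MGHS animals and 148 ± 21.0 CPM in MGNS animals (log2 fold change -1.10 ± 0.21, adjusted p = 0.0850 in edgeR), F11R at -0.81 ± 0.23, MARVELD2 at -1.41 ± 0.51 and CLDN4 at 0.69 ± 0.28. CLDN4 turned negative under the stricter rule and the rule without CA1. Hemidesmosome genes had a median of 0.11 over 16, with ITGA2 at -1.39 ± 0.38, COL7A1 at 1.03 ± 0.42 and COL17A1 at 0.56 ± 0.32.

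Immune genes had medians below 0 without a call. The NF-kB, cytokine and sensor list had a median of -0.43 over 29 tested, with 1 gene apart higher and 6 (20.7%) apart lower. Besides NFKB1, CASP1, which matures IL1B, was at -1.68 ± 0.43, the bacterial sensor NOD2 at -1.22 ± 0.34 and the chemokine CCL20 at -2.33 ± 0.73. Antigen presentation genes had a median of -0.99 over 14, with 1 apart lower, and ERAP2, NLRC5, TAP1 and PSMB10 lay between -1.66 and -1.11. The summed level of the antigen presentation list was 1501, 802 and 1375 CPM in MGHS animals and 2451, 3982 and 1178 CPM in MGNS animals, with overlap, and MGNS 2, whose library stood apart, was the highest. Interferon response genes summed to 1237, 663 and 305 CPM in MGHS animals and 522, 2941 and 286 CPM in MGNS animals, again highest in MGNS 2 and with overlap. T or NK markers had the same direction: their summed level was 132 to 178 CPM in MGHS animals and 261 to 294 CPM in MGNS animals. Smooth muscle and pericyte markers ran the other way, at 143 to 266 CPM in MGHS animals and 78.7 to 108 CPM in MGNS animals, with ACTA2 at 2.57 ± 0.59. No marker of either list was at 0 over the PAPSS2 nuclei, and the part of either cell type in these results was not tested.

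The nucleoside transport list had a median of -0.07 over 4 tested. The other function lists gave medians between -0.44 and 0.14, none with a call. IGFBP5, a binding protein of insulin-like growth factors, stood at 101, 127 and 77.7 CPM in MGHS animals, against 75.7, 6.15 and 31.8 CPM in MGNS animals, without overlap on this scale but with overlap in plain CPM (log2 fold change 1.61 ± 0.70, adjusted p = 0.274 in edgeR). It was past the test in basal nuclei, at 1.68 ± 0.21 with adjusted p = 0.0358, and the difference between the 2 classes was 0.12 ± 0.66 and did not pass.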

How the data were processed

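Nuclear RNA from 6 lambs was counted in 10x Genomics droplets. The deposited values are unscaled UMI counts for each gene in each barcode. Cell Ranger is named with version 8.0.0, per the file headers, but with version 2.1.1 in the submitters' processing notes. Genome build, annotation, strand setting and barcode filter were not given in the sources used here. Gene numbers were matched to symbols (26741 of 26741) with a RefSeq table of ARS-UI_Ramb_v3.0, used for names only.

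Everything else was computed from those counts with Python 3.11.15 (scanpy 1.11.5) and R 4.3.3 (edgeR 4.0.16, DESeq2 1.42.0, limma 3.58.1). UMIs were summed per animal and class, filtered with filterByExpr at a minimum count of 10, scaled by TMM and tested with edgeR's robust quasi-likelihood test of MGHS against MGNS with no covariate. The class-by-group terms kept the animal as a block. Plain CPM is used for levels between classes, for the genes of the rule, GJA1 and FBXO32, for list sums and for levels in other classes. TMM-scaled CPM is used for group levels of the other single genes in PAPSS2 nuclei. Classes were set by fixed genes and not by clustering. Doublets were called with Scrublet, which marked 3.73% to 11.8% of nuclei per library, and were kept in the main results; in MGNS 1 the highest scores were taken at 0.8% per 1000 nuclei, since the threshold of the caller marked under 0.5%. Near-identical genes may share reads.

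Members and lists were chosen with earlier results of these data known. Named genes are the genes of the rule, the 20 highest and 10 lowest against other epithelial nuclei, the called genes with the next by smallest p among those whose groups lay apart, up to 10 a direction, up to 4 per function list by smallest p, the called or 3 smallest class-by-group terms, and SELENOW, GPX1, SLC28A3, IGFBP5, SLC9A3 and SLC16A1; some genes this takes in are not reported here. Separate lambs make up the replicates. The fits were tested on simulated data.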

Additional observations from a re-analysis of the deposited data

Results flagged for a closer look

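FBXO32 had another MGHS effect in PAPSS2 nuclei than in basal nuclei by the class-by-group test, with a difference of -1.57 ± 0.21 (log2, adjusted p = 0.0210 in edgeR's quasi-likelihood test). Its log2 fold change was 1.15 ± 0.43 in PAPSS2 nuclei and 2.87 ± 0.60 in basal nuclei. Over 11 alternatives the difference ran from -2.65 to -0.47 and passed in 4, with adjusted p between 1.79e-10 and 0.914.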

How the results depend on the processing

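The 10 calls in PAPSS2 nuclei became 213 with the DESeq2 Wald test and 653 with no filter on low counts, and 1 without doublets, with the stricter rule or with the rule without CA1; 14, 12, 10, 9 and 9 came from limma-voom, thinning, DESeq2 size factors, 1000 genes and the epithelial subset, of which 9, 3, 10, 9 and 8 were among the main 10. Leaving out 1 animal gave 1 to 10 calls: 1 without MGHS 1 or MGNS 2, 2 without MGNS 1, 3 without MGHS 2 or MGNS 3, and 10 without MGHS 3, 5 of them among the main 10. GPX1 passed in all of these. Same-numbered animals did not deviate together (correlations -0.12, 0.02 and 0.10), and the replicate block gave 6 calls, 3 of them shared. Against basal nuclei the 1 call became 88 with no filter, 34 under the rule without CA1, 0 without doublets or in the epithelial subset, and 0 to 35 without 1 animal, 35 without MGNS 3 and 7 without MGHS 3. Against spinous nuclei the 0 became 91 with no filter, 2 without CA1, and 0 to 2 without 1 animal. The share difference of -0.30 percentage points turned to 0.85 over all nuclei, and ran from -0.83 to 0.018 without 1 animal, positive only without MGNS 2. For single genes, CLDN4 turned to -0.072 under the stricter rule and -0.29 without CA1, and FBXO32 to -0.61 and -0.12. LRIG3 turned to -0.29 after thinning and -0.025 in the epithelial subset, and SLC16A7 to 0.16 after thinning. Of 1350 gene values over 82 genes, most of them not called in the main fit, 1164 kept direction and call. A further 88 gained a call, 7 reversed and 91 lost a call, all 91 among the 10 called genes. Apart from GPX1, each called gene passed in only 4 to 9 of its 15 to 17 alternatives. Causes were not tested. Depth left 9038 of 26741 genes above the filter on low counts in PAPSS2 nuclei, and the others were not tested.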
